A study of Homo sapiens with 22 samples.

Results

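H1299 cells depleted of BRCA2 were treated with a GSK3 inhibitor, LY2090314 (GSK3i), at 250 nM for 24 h and compared with untreated cells by RNA sequencing of polyadenylated transcripts. The libraries were chosen by their labels as those of BRCA2-deficient cells that received control siRNA with or without GSK3i, which gave 3 GSK3i and 3 untreated libraries, 6 of the 22 in the series. H1299 is an established human non-small cell lung carcinoma line. An shRNA against BRCA2 that doxycycline (DOX) induces was present in all 6 cultures, which were grown with 2 µg/mL DOX for 3 days and received the control siRNA a day after DOX was added. The labels give the control as no treatment, and the study's figure text names it DMSO. Of 37908 genes counted, 16863 had at least 10 counts in 3 or more of the 6 libraries and were tested. The model is 1 cell line, and because DOX and BRCA2 depletion always occurred together, their effects cannot be told apart. The question was which transcripts change when GSK3 is inhibited in cells that lack BRCA2. For the difference between backgrounds, the 5 libraries of BRCA2-proficient cells were used (no DOX, control siRNA). They were 2 untreated, replicates 2 and 3, and 3 GSK3i, replicates 1 to 3. For the dependence on β-catenin, the 6 libraries of BRCA2-deficient cells transfected with siβ-catenin were used, 3 of them with GSK3i.

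GSK3, encoded by GSK3A and GSK3B, is a kinase that is active in resting cells. Together with APC, the AXIN scaffolds and casein kinase, it phosphorylates β-catenin and so marks it for ubiquitylation and degradation. WNT ligands, acting through Frizzled and LRP receptors and Dishevelled, switch this destruction complex off, and the β-catenin that accumulates binds TCF and LEF factors at target genes such as AXIN2. GSK3 also phosphorylates glycogen synthase, MYC, cyclins and many other proteins, so an inhibitor of the kinase reaches further than the WNT pathway. BRCA2 acts in homologous recombination and protects stalled replication forks.

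The deposited counts held 18.9 to 21.6 M reads in the untreated libraries and 22.1 to 27.1 M in the GSK3i libraries, with no overlap between the groups, within 18.9 to 29.3 M over the series. The first principal component of the 6 libraries held 60.3% of the variance and separated the treatments, and the second (24.1%) set replicate 1 of both groups apart from the others. The depletion was visible in BRCA2, at 848 and 695 normalised counts in the untreated proficient libraries and 71.4, 115.9 and 179.1 in the untreated deficient ones. A normalised count is a count divided by a size factor set over all 22 libraries. The cells expressed markers of mesenchymal carcinoma, with VIM at 19886 to 35307 and AXL at 13839 to 42285 normalised counts. Of the 6 epithelial markers, KRT8 (2306 to 8200), KRT18 (5068 to 12950) and KRT7 (135.3 to 434.4) were expressed as well. CDH1, EPCAM and KRT19 stood at no more than 18.4. The 5 immune markers summed to 18.4 to 20.5 in untreated and 23 to 30.9 in GSK3i libraries, and the 7 fibroblast markers to 259 to 345 and 135 to 142, with LUM and the lung marker SFTPA1 at 0 throughout, and the part of such cells in the results was not tested. The summed level of the 6 epithelial markers was 13673 to 21596 in untreated and 7569 to 12068 in GSK3i libraries. In bulk RNA, fewer cells of a type and less of its RNA per cell cannot be told apart. The labels do not say that replicates came from separate cultures, although the study's figure text calls them independent experiments, so p-values measure the spread between these libraries.

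GSK3i changed the level of 25.4% of the tested genes, in both directions. Calls required an adjusted p under 0.05 in DESeq2 and a log2 fold change (GSK3i over untreated) beyond 0.5 in either direction. They were made for 4289 of 16863 genes, 1955 higher (11.6%) and 2334 lower (13.8%). The decreases were larger, with a median log2 change of -1.07 against 0.76 for the increases. A change past 1 on the log2 scale was called upward for 473 genes and downward for 1276, and past 2 for 49 and 266. The groups did not overlap for 4136 of the called genes (96.4%), against 43% of all genes tested. Counts thinned to equal library totals gave 4149 called genes, 1917 of them higher. Scaling by library totals instead of the median of ratios moved the median of all genes by -0.11 on the log2 scale and gave 1338 higher and 2976 lower, so that 31.0% of calls were upward instead of 45.6%. Values below are relative to the median of ratios unless said otherwise, and log2 changes are given ± SE. Counts called in each gene list below are to be read beside the 11.6% higher and 13.8% lower of all genes.

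**Figure D1:**
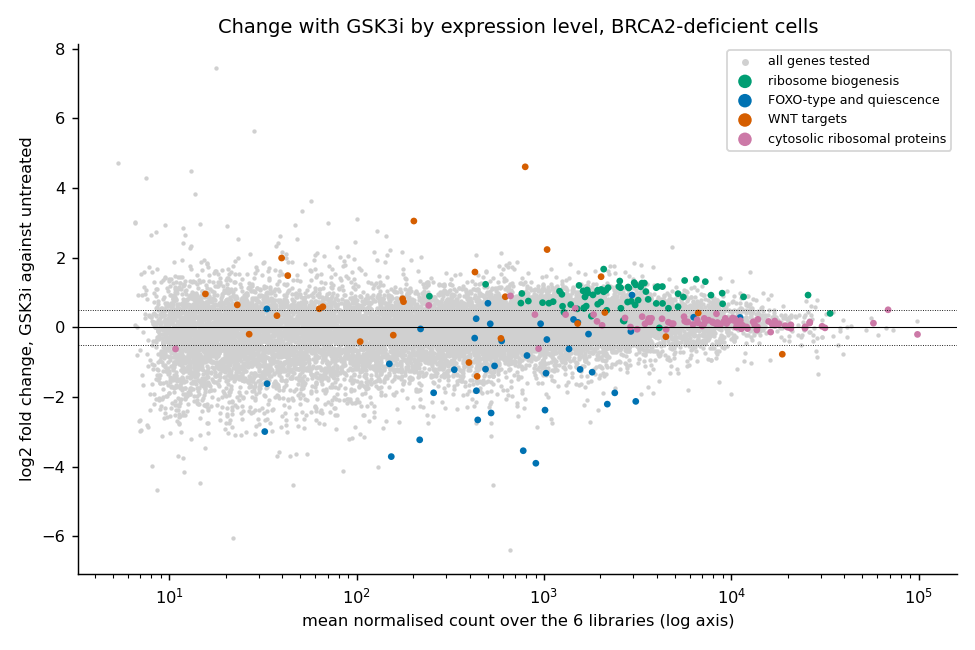
Each point is 1 of the 16863 tested genes, with its mean normalised count over the 6 BRCA2-deficient libraries on the x axis (log scale) and its log2 fold change with GSK3i on the y axis, and dotted lines mark 0.5 and -0.5. Ribosome biogenesis genes (green) lie above 0, most FOXO-type and quiescence genes (blue) lie below, and cytosolic ribosomal proteins (pink) lie close to 0 with a median of 0.13.

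AXIN2, the feedback scaffold of the destruction complex (ENSG00000168646, GRCh37 chr17:63524681-63557766, minus strand), stood at 59.5, 63.9 and 63.4 normalised counts in the untreated libraries and at 1231, 1747 and 1593 with GSK3i. Its log2 change of 4.61 ± 0.22 (adjusted p = 2.15e-93) was the largest increase among genes with a mean of at least 100 counts. Beside the TCF and LEF factors, that group of 12 held genes with no single function in common. GPNMB, a glycoprotein of lysosomes and melanosomes (ENSG00000136235, chr7:23275586-23314727), went from 48.8, 27.1 and 44 to 203.9, 292.7 and 246.8 normalised counts (2.63 ± 0.29). For both AXIN2 and GPNMB the GSK3i libraries all lay above the untreated ones, which was a condition for being in that group. The glutamate transporter SLC1A3 (2.16 ± 0.23), the tachykinin precursor TAC1 (2.17 ± 0.31), the inositol trisphosphate kinase ITPKA (2.14 ± 0.17), the ubiquitin ligase RNF128 (2.08 ± 0.20) and the long non-coding RNA LINC01293 (2.21 ± 0.24) rose by a similar amount. KRTAP2-3, a hair keratin-associated protein gene with near-identical copies whose reads the counting could split, had a fitted change of 3.12 ± 0.50 and is uncertain for that reason.

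At the other end, PDCD4, an inhibitor of translation initiation and a tumour suppressor (ENSG00000150593, chr10:112631553-112659764), fell from 1611, 1920 and 1551 to 107.7, 115.0 and 117.1 normalised counts. The 3 GSK3i values lay within a narrow range far under the untreated ones, and the log2 change of -3.90 ± 0.18 had the lowest adjusted p of the named genes (2.77e-100). ABTB1, an ankyrin and BTB domain protein, stood at 1807, 1397 and 1072 untreated and 137.5, 102.6 and 127.8 with GSK3i (-3.54 ± 0.24). PIK3IP1, a negative regulator of PI3K, fell by 3.23 ± 0.32 on the log2 scale and CREBRF, a regulator of the CREB3 stress factor, by 2.75 ± 0.26. The HOX and PBX partner PBXIP1 (-2.86 ± 0.19), the tight junction protein TJP3 (-2.88 ± 0.35), UBALD2 (-3.12 ± 0.26), TMEM86A (-3.06 ± 0.31) and PGM5 (-3.14 ± 0.32) fell by comparable amounts. In each of these genes every GSK3i library lay under every untreated one, which was a condition of their choice.

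**Figure D2:**
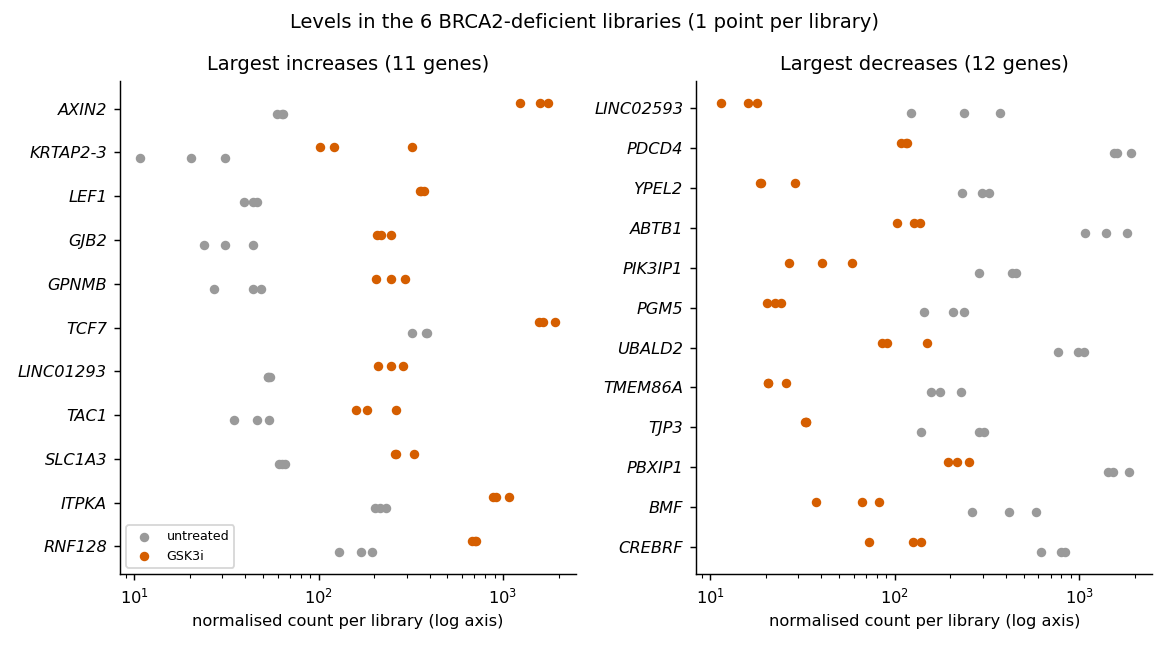
Normalised counts (log axis) of 11 of the 12 genes of largest increase and the 12 of largest decrease among called genes with a mean of at least 100, with 1 point per library, grey for untreated and orange for GSK3i. The colours do not overlap for any of the 23 genes, a condition of their choice, and AXIN2 moved from about 60 counts to over 1200.

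Among very abundant transcripts the changes were smaller. FLNC, an actin cross-linker, stood at 20796, 17849 and 24121 untreated and 33986, 29516 and 45731 with GSK3i. The groups did not overlap, and it rose by 0.80 ± 0.21. IRAK1, a kinase of Toll-like receptor signalling, rose by 0.62 ± 0.14 and the mitochondrial chaperonin HSPD1 by 0.77 ± 0.15. SCD, which makes monounsaturated fatty acids, stood at 49685, 62359 and 36133 untreated and 28484, 35795 and 23314 with GSK3i (-0.76 ± 0.24, not called without untreated replicate 2, at -0.56, or GSK3i replicate 3, at -0.62). AXL, a receptor tyrosine kinase and a marker of mesenchymal carcinoma cells, stood at 42033, 42285 and 39910 and at 17510, 13839 and 17854 (-1.34 ± 0.16). The GSK3i libraries again lay under the untreated ones for both. Groups without overlap were a condition of the choice of the genes in this paragraph. The integrin subunit ITGA3 fell by 0.86 ± 0.18.

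The WNT pathway was read from its ligands to its targets. Of 29 tested WNT ligands, receptors and Dishevelled genes, 4 rose (13.8%) and 5 fell (17.2%), shares near those of all genes, with a median log2 change of -0.09 against 0.03 over all genes tested. The Frizzled receptors FZD7 (-1.08 ± 0.18), FZD2 (-0.96 ± 0.20) and FZD1 (-0.72 ± 0.18) and the ligands WNT10A and WNT5A fell, the last called in 5 of the 6 fits without 1 library. FZD5 (0.89 ± 0.23), DVL1 (0.70 ± 0.17), WNT10B and WNT16 rose. FZD7 stood at 528.4, 670.4 and 581.2 normalised counts untreated and 293.3, 295.3 and 252.1 with GSK3i, without overlap. With library totals, 9 of the list were lower, and 8 were without GSK3i replicate 1.

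Of 29 tested genes of the destruction complex and of β-catenin's partners, 6 rose (20.7%, against 11.6% of all genes) and 3 fell (10.3%, against 13.8%), with a median of -0.15. AXIN1, the constitutive scaffold, rose from 1152, 1018 and 1037 to 2242, 2122 and 2071 normalised counts (1.0 ± 0.14, adjusted p = 5.64e-11). AMER1, which recruits APC to the membrane (1.21 ± 0.28), and PYGO1, a co-activator of β-catenin (1.09 ± 0.31), rose as well. JUP, the β-catenin relative plakoglobin, fell from 566.5, 458.2 and 460.5 to 194.7, 189.2 and 190.4 (-1.37 ± 0.18). FRAT1 and FRAT2 encode proteins that bind GSK3 and displace it from AXIN. FRAT1 stood at 47.6, 49.8 and 31.7 normalised counts untreated and at 1.15, 0 and 0.89 with GSK3i, so that its fall was to at most a single read per library and has no dependable fold. FRAT2 stood at 227.3, 196.0 and 180.1 and at 123.7, 91.1 and 84.9 (-1.02 ± 0.24). Neither gene's groups overlapped. The kinase itself was listed at 3258, 2537 and 2585 untreated and 5067, 3789 and 3645 with GSK3i for GSK3A (0.58 ± 0.20, adjusted p = 0.0158, not called without untreated replicate 2, untreated replicate 3 or GSK3i replicate 1, at 0.51, 0.52 and 0.41), while GSK3B differed by 0.01 ± 0.21 and its sign depended on the scaling. CTNNB1, which encodes β-catenin, had a log2 change of -0.42 ± 0.17 and was not called (adjusted p = 0.0534). With library totals, 3 of this list were higher and 5 lower, as were 3 higher without untreated replicate 2 and 5 lower without GSK3i replicate 1.

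Of 26 tested WNT targets and feedback regulators, 10 rose (38.5%, against 11.6% of all genes) and 3 fell (11.5%, against 13.8%), with a median of 0.56. ZNRF3 and RNF43 are ubiquitin ligases that remove Frizzled receptors from the membrane. ZNRF3 stood at 165.4, 223.1 and 250.7 normalised counts untreated and 506.3, 734.8 and 684.8 with GSK3i (1.59 ± 0.23, adjusted p = 5.17e-10). RNF43 was scarcer, at 15.5, 9.7 and 22.5 against 60.7, 48.6 and 81.4 (1.99 ± 0.44). Neither overlapped between groups. SP5, a repressor induced by WNT, rose less, from 144.0, 137.6 and 100.3 to 214.2, 224.6 and 234.2 (0.82 ± 0.22), and RUNX2, TNFRSF19 and BMP4 rose too. ID2 (-1.41 ± 0.22), KREMEN1 (-1.01 ± 0.20) and CD44 (-0.77 ± 0.18) fell.

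MYC, a target of β-catenin in intestine, stood at 4664, 4779 and 5195 normalised counts untreated and 4434, 3489 and 4244 with GSK3i. Its groups did not overlap but the log2 change of -0.27 ± 0.16 was not called (adjusted p = 0.202). In the network of MYC partners and antagonists, 1 of 9 genes rose (MLXIP, 0.61 ± 0.17, not called with library totals) and 3 fell (MLXIPL, MNT and MXD3), of which 1 remained without untreated replicate 1, GSK3i replicate 2 or GSK3i replicate 3. The share that rose was 11.1%, near the 11.6% of all genes, and the share that fell 33.3%, against 13.8%.

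The gene list with the highest median was that of ribosome biogenesis, the nucleolar assembly of ribosomal subunits. The lists were written with earlier results of these data known, so their order can follow from that choice. Of its 72 genes, all tested, 65 rose and none fell, with a median log2 change of 0.93. NOP16 rose from 1097, 944.5 and 935.3 to 4076, 2810 and 2620 normalised counts (1.67 ± 0.21, adjusted p = 2.28e-13). NOP2, an rRNA methyltransferase, stood at 3277, 3051 and 3194 and at 8845, 7907 and 7482 (1.35 ± 0.14). The helicase DDX21 (1.38 ± 0.24) and nucleolin, NCL (0.93 ± 0.14), rose as well. All GSK3i libraries lay above the untreated ones in these 4 genes. NPM1, NHP2, NOP10, TAF1D, UBTF, MPHOSPH10 and WDR75 were the members not called. Of the host genes of small nucleolar RNAs, 11 of 24 were higher and none lower (median 0.45), led among the well-expressed ones by SNHG15 (1.29 ± 0.17), SNHG17 (1.24 ± 0.20) and SNHG7 (1.08 ± 0.20).

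The E-box CACGTG, the sequence that MYC, MAX and MLX proteins recognise, was present on either strand in 24 of the 60 ribosome biogenesis promoters that the RefSeq table held (40.0%), against 9.88% of the promoters of 11570 tested genes and 15.2% of those of genes that rose. A promoter here spans 250 bases before to 50 after the annotated start, on GRCh38.p14. The stretches below, upstream of IMP4 and UTP18 (processome proteins, log2 change 1.17 ± 0.17 and 0.75 ± 0.19), show the match in capitals and lie at chr2:130342668-130342725 and chr17:51260431-51260488, both on the plus strand.
IMP4: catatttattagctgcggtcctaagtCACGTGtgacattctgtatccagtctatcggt
UTP18: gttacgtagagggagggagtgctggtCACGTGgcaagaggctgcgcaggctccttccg
A match describes the letters of the window and is neither evidence of binding nor of a cause.

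The ribosome's own proteins moved little. Of 89 tested cytosolic ribosomal protein genes, 4 rose (4.49%) and 1 fell (1.12%), with a median of 0.13 and library totals leaving 1 in each direction. RPL22L1, the paralogue of RPL22, had the largest increase of the well-expressed ones at 0.90 ± 0.24, and RPS27L, the paralogue of RPS27, fell by 0.61 ± 0.24 on the log2 scale, a call lost without untreated replicates 1 or 2 or GSK3i replicates 2 or 3 (-0.70 to -0.41). The 4 increases were 1 or 2 without any of the libraries other than untreated replicate 1. Many of these genes have processed pseudogenes whose reads the counting could split. Mitochondrial ribosomal proteins were higher in 23 of 75 (median 0.44) and lower in none (1 without GSK3i replicate 1), among them MRPS30 (1.08 ± 0.15) and MRPS12 (0.98 ± 0.23). In oxidative phosphorylation, 9 of 80 nuclear-encoded genes rose (11.2%, near the 11.6% of all genes) and none fell (1 without GSK3i replicate 1), the former led by cytochrome c, CYCS (1.04 ± 0.20), and none of the 13 genes of mitochondrial DNA was called. Library totals reduced those counts to 13 mitochondrial ribosomal proteins and 3 oxidative phosphorylation genes, and they were 9 to 11 and 2 to 3 without untreated replicate 2, untreated replicate 3 or GSK3i replicate 1.

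Genes that supply amino acids and charge tRNAs rose. In the list of the ATF4 stress response and amino acid supply, 17 of 32 rose (9 in the model over all 22 libraries) and 2 fell (1 without untreated replicate 2, GSK3i replicate 2 or GSK3i replicate 3), with a median of 0.66. SLC7A5 and SLC3A2 form the transporter of large neutral amino acids. SLC7A5 stood at 1436, 1370 and 1636 normalised counts untreated and 5688, 4594 and 5009 with GSK3i (1.78 ± 0.16, adjusted p = 9.24e-26), and SLC3A2 at 2824, 2271 and 2573 and at 7437, 5588 and 7117 (1.39 ± 0.18). The groups were apart in both. STC2, a secreted stanniocalcin (1.69 ± 0.31), and ATF4 itself (0.88 ± 0.20) rose as well, while the glutamine transporter SLC38A2 fell by 0.93 ± 0.21. Of 22 cytosolic aminoacyl-tRNA synthetases, 14 rose and none fell (median 0.61), led by FARSA (0.90 ± 0.18), YARS1 (0.89 ± 0.17) and GARS1 (0.80 ± 0.15). Of 25 heat shock and cytosolic chaperones, 12 rose and 1 fell (none without untreated replicate 2), with a median of 0.46. DNAJB1, the co-chaperone of HSP70, stood at 6007, 6441 and 6092 untreated and 14344, 11975 and 12234 with GSK3i (1.05 ± 0.14), without overlap. Of the 22 chaperones and stress genes of the endoplasmic reticulum, none was higher (1 with the replicate block) and 3 were lower (13.6%, near the 13.8% of all genes), among them DNAJB9 (-0.76 ± 0.16) and the stress sensor ATF6 (-0.57 ± 0.15).

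Entry into S phase is driven by E2F factors, which RB-family proteins hold in check until cyclin-dependent kinases release them. Of 15 G1 cyclins, kinases and inhibitors, CDK4 rose (0.56 ± 0.18, not called without untreated replicate 2, untreated replicate 3 or GSK3i replicate 1, at 0.60, 0.47 and 0.42) and 5 fell, all of them inhibitors of cyclin-dependent kinases. The shares were 6.67% higher and 33.3% lower, against 11.6% and 13.8% of all genes. CDKN1B, which encodes p27, stood at 2477, 2789 and 2126 normalised counts untreated and 1281, 1394 and 1302 with GSK3i (-0.90 ± 0.16, adjusted p = 6.66e-07). CDKN2C, which encodes p18, stood at 780.7, 1097 and 710.2 and at 382.6, 503.1 and 371.9 (-1.04 ± 0.23). CDKN1C, which encodes p57, was lower in abundance, at 90.4, 84.5 and 43.0 against 16.0, 18.6 and 9.8 (-2.30 ± 0.45). None of these groups overlapped. CDKN1A (-0.71 ± 0.23) and CDKN2A also fell, CDKN2A called in 2 of the 6 fits without 1 library and CDKN1A not called without untreated replicate 1, GSK3i replicate 2 or GSK3i replicate 3 (-0.67 to -0.56), and the list then held 3 falls. CCNE1 had 0.02 ± 0.22, with a sign that depended on the scaling, and CCND1 0.41 ± 0.17 (adjusted p = 0.0509), neither called.

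In the E2F and RB family, 7 of 17 rose (4 without GSK3i replicate 2) and 2 fell (1 by edgeR or without untreated replicate 2, untreated replicate 3, GSK3i replicate 1 or GSK3i replicate 3), with a median of 0.47. That was 41.2% higher and 11.8% lower, against 11.6% and 13.8% of all genes. TFDP1, the dimer partner of E2F proteins, rose by 0.84 ± 0.17. RBL2, the pocket protein p130 of resting cells, fell from 1018, 1500 and 1766 to 336.8, 674.7 and 707.2 (-1.32 ± 0.30).

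Of 50 replication licensing and fork genes, 30 rose and none fell (1 with library totals or without GSK3i replicate 1), with a median of 0.63. FEN1, the flap endonuclease of Okazaki fragments, stood at 1466, 1526 and 1454 normalised counts untreated and 4205, 3439 and 2923 with GSK3i (1.25 ± 0.18, adjusted p = 1.44e-10). GINS3, a subunit of the replicative helicase, stood at 422.5, 359.6 and 379.6 and at 1040, 835.6 and 746.5 (1.17 ± 0.19). CDT1, which loads the helicase at origins, stood at 1678, 1697 and 1690 and at 4367, 3504 and 3244 (1.13 ± 0.17). The untreated and GSK3i libraries were apart in all of these. Genes of nucleotide synthesis rose in 14 of 27 cases with none lower (median 0.54), among them DCTPP1 (1.20 ± 0.23), the pyrimidine enzyme CAD (1.01 ± 0.17) and MTHFD1 (0.92 ± 0.14). In homologous recombination and Fanconi genes, 13 of 43 rose and 1 fell (none in the model over all 22 libraries or without untreated replicate 2, GSK3i replicate 2 or GSK3i replicate 3), with a median of 0.36. The shares in this list were 30.2% and 2.33%, against 11.6% and 13.8% of all genes. The recombination gene XRCC3 stood at 2398, 2296 and 2306 and at 6053, 5010 and 5160 (1.21 ± 0.15), and XRCC2 (1.4 ± 0.36) and the end-joining polymerase POLQ (1.25 ± 0.32) rose with it. BRCA2, the target of the shRNA, stood at 84.8, 212.2 and 225.3 with GSK3i, overlapping the untreated values (0.51 ± 0.42, adjusted p = 0.386).

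An E2F motif (TTTCCCGC, TTTCGCGC or TTTGGCGC, on either strand) was present in 19 of 44 replication promoters (43.2%) and in 6 of 15 of the E2F and RB family (40.0%), against 4.43% of all. Among promoters of genes that rose the share was 6.93%, and among those of genes that fell 2.7%. The matches upstream of CDT1 (chr16:88803728-88803787, plus strand) and of the sliding clamp PCNA (chr20:5126648-5126707, minus strand, 0.71 ± 0.17) are shown in capitals and read on the opposite strand of the motif.
CDT1: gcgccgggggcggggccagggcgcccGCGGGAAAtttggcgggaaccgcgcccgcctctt
PCNA: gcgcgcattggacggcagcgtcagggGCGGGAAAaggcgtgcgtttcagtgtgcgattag

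Of 57 mitotic genes, 12 rose (21.1%, against 11.6% of all genes) and 1 fell (1.75%, against 13.8%), with a median of 0.34. The fall was absent without untreated replicate 2 or GSK3i replicate 3, and 2 fell without untreated replicate 1 or with library totals. MYBL2, a transcription factor of the late cell cycle, stood at 4202, 3791 and 4684 normalised counts untreated and 11359, 9027 and 8531 with GSK3i (1.19 ± 0.18, adjusted p = 8.55e-10). CDC25A, the phosphatase that activates CDK2, rose by 1.10 ± 0.18 and AURKB, the kinase of the chromosomal passenger complex, by 0.84 ± 0.17. MKI67, at 2603, 3969 and 6199 untreated and 3615, 4642 and 7555 with GSK3i, overlapped and was not called (0.31 ± 0.34).

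The list with the lowest median held genes induced by FOXO factors or in quiescence. Of 39 tested members, 23 fell and 2 rose, with a median log2 change of -1.11. HBP1, a repressor of cell cycle genes, stood at 1522, 2067 and 1500 normalised counts untreated and 304.7, 365.2 and 310.2 with GSK3i (-2.38 ± 0.20, adjusted p = 6.06e-31). CCNG2, a cyclin of arrested cells, stood at 715.2, 948.8 and 628.3 and at 96.2, 162.7 and 103.7 (-2.66 ± 0.26). BTG1, an antiproliferative factor, stood at 2505, 2083 and 1928 and at 1257, 743.7 and 825.2 (-1.21 ± 0.23). The groups did not overlap in any of the 3. Of the factors themselves, FOXO1 (-1.05 ± 0.22) and FOXO4 fell while FOXO3 rose from 1535, 2103 and 2443 to 2989, 4012 and 4592 (0.93 ± 0.23). TRIB2, which restrains FOXO3, was the other member that rose (0.69 ± 0.23), a call lost without untreated replicates 1 or 3 or GSK3i replicates 2 or 3 (0.51 to 0.69).

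A FOXO motif (GTAAACA or ATAAACA, either strand) was present in 7 of the 32 promoters of this list (21.9%), in 6.67% of promoters of genes that fell, 2.93% of genes that rose and 4.14% of all. The matches upstream of HBP1 (chr7:107168804-107168862, plus strand) and BTG1 (chr12:92146023-92146081, minus strand) are in capitals, the latter read on the opposite strand.
HBP1: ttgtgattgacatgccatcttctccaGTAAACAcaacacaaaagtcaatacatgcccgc
BTG1: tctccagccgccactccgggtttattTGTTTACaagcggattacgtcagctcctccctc

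Among genes of insulin, PI3K and mTOR signalling, 2 of 29 were higher (6.9%, 1 in the model over all 22 libraries) and 9 lower (31.0%), with a median of -0.06. The latter were 5 without GSK3i replicate 2. These are transcript levels, and the activity of the pathway was not measured. The adaptor IRS1 stood at 621.2, 910.9 and 1014 normalised counts untreated and 1729, 2490 and 3137 with GSK3i (1.53 ± 0.26), while the insulin receptor INSR stood at 441.5, 363.9 and 341.8 and at 183.3, 131.8 and 187.7 (-1.19 ± 0.22). The 2 genes moved apart without overlap. DDIT4, an inhibitor of mTORC1 induced by stress, fell by 1.39 ± 0.29 and SESN2 rose by 0.72 ± 0.17. Among 24 glycogen genes, none rose (1 without GSK3i replicate 1) and 3 fell (12.5%, near the share of all genes, and 5 with library totals or in the model over all 22 libraries), PPP1R3G, PPP1R3C (-0.79 ± 0.19) and PHKB (-0.59 ± 0.15), and glycogen synthase GYS1, a substrate of GSK3, was not called (-0.25 ± 0.15).

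In the BCL2 family, 5 of 17 rose (29.4%, against 11.6% of all genes) and 4 fell (23.5%, against 13.8%). The former were 3 with library totals or without untreated replicate 1, untreated replicate 2 or GSK3i replicate 2. The pro-apoptotic BH3-only genes moved both ways. BMF stood at 583.1, 415.9 and 260.9 normalised counts untreated and 66.4, 82.2 and 37.5 with GSK3i (-2.76 ± 0.36) and BBC3, which encodes PUMA, at 255.9, 229.6 and 138.1 and at 66.4, 64.6 and 58.1 (-1.72 ± 0.29). BCL2L11, which encodes BIM, moved from 232.1, 272.9 and 293.7 to 437.6, 642.8 and 620.5 (1.09 ± 0.22, adjusted p = 8.67e-06). The groups did not overlap in these 3. BCL2, the founding survival gene, rose by 1.25 ± 0.19, the effector BAK1 by 0.72 ± 0.16, and the mitophagy receptor BNIP3L fell by 2.09 ± 0.16. Autophagy and lysosome genes, 98 in all, had 12 higher (12.2%) and 16 lower (16.3%), near the shares of all genes (median -0.02). The autophagy kinase ULK1 (-1.86 ± 0.17), the receptor NBR1 (-1.74 ± 0.18) and the protease CTSO (-2.29 ± 0.21) fell, and the calcium channel MCOLN1 (1.0 ± 0.19), the proton pump subunit ATP6V0A2 (1.03 ± 0.20) and RRAGD (0.98 ± 0.18) rose. TFEB, the lysosomal transcription factor that GSK3 phosphorylates, was listed at 0.10 ± 0.22 and not called.

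Interferon-stimulated genes fell in 20 of 33 cases and none rose (median -0.76), with 1 higher under the replicate block or without GSK3i replicate 1. SAMD9L stood at 139.2, 182.0 and 286.5 normalised counts untreated and 18.3, 29.2 and 46.5 with GSK3i (-2.68 ± 0.39). ISG20, an RNA exonuclease, stood at 279.7, 263.2 and 196.5 and at 69.9, 63.7 and 64.4 (-1.90 ± 0.24), and IFIT1, a sensor of viral RNA, at 313.0, 508.0 and 366.3 and at 152.4, 205.1 and 165.4 (-1.18 ± 0.25). None of these overlapped between groups. STAT2 fell as well, while ISG15 (-0.35 ± 0.21) was not called. The immunoproteasome genes PSMB9 (-1.27 ± 0.24) and PSMB10 (-1.12 ± 0.28) fell, and no other of 44 proteasome genes was called lower, although 5 were without GSK3i replicate 1. GAAA, any 2 bases and GAAA, the core of the interferon response element, were present on either strand in 18 of 25 promoters of the list (72%), against 2.69% of all. They are shown in capitals upstream of IFIT1 (chr10:89392494-89392555, plus strand, 2 matches) and ISG20 (chr15:88638921-88638982, plus strand).
IFIT1: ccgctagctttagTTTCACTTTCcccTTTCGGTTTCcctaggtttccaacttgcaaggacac
ISG20: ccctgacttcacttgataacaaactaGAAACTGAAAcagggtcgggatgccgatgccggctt

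Of 51 extracellular matrix and remodelling genes, 24 fell (47.1%) and 3 rose (median -0.59). The rises were 1 without untreated replicate 1 or GSK3i replicate 2 and none without untreated replicate 2 or GSK3i replicate 3. PLAU, the urokinase protease, stood at 16241, 16466 and 14409 normalised counts untreated and 5024, 3574 and 3847 with GSK3i (-1.92 ± 0.18, adjusted p = 6.41e-24). THBS1, a matricellular protein, stood at 4996, 5015 and 6401 and at 1462, 1432 and 2130 (-1.71 ± 0.21), and the collagen cross-linking enzyme LOX fell by 2.34 ± 0.24. Among YAP and TEAD targets, 9 of 26 fell (14 with library totals) and 3 rose (median -0.43), with CCN1 at 14149, 12381 and 11856 and at 4108, 3644 and 5142 (-1.58 ± 0.18). In TGF-β and BMP signalling, 14 of 40 fell and 2 rose (median -0.14), the latter 4 with the replicate block or without GSK3i replicate 1 and 1 without untreated replicate 2 or GSK3i replicate 2. The BMP targets ID1 (-1.87 ± 0.18), ID3 (-1.91 ± 0.17) and SMAD6 (-2.87 ± 0.34) fell while the receptor BMPR1B (0.82 ± 0.20) and the ligand BMP4 rose, the latter a call lost without untreated replicates 2 or 3 or GSK3i replicate 2 (0.54 to 0.70, against 0.74). Cholesterol and fatty acid synthesis genes fell in 15 of 39 cases (9 without untreated replicate 2) with none higher (1 without GSK3i replicate 1) and a median of -0.39, led by TM7SF2 (-2.07 ± 0.27), MSMO1 (-1.38 ± 0.22) and HSD17B7 (-1.23 ± 0.24). In NF-κB targets and chemokines, 7 of 21 fell and 2 rose (1 in each of the 6 fits without 1 library and in the model over all 22 libraries), with TRAF1 at -1.42 ± 0.27 and the inhibitor NFKBIB at 1.16 ± 0.15, and the falls were 4 without untreated replicate 2, GSK3i replicate 2 or GSK3i replicate 3. The shares lower were 34.6% for YAP and TEAD, 35.0% for TGF-β and BMP, 38.5% for cholesterol and fatty acid and 33.3% for NF-κB genes. The share over all genes was 13.8%.

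**Figure D3:**
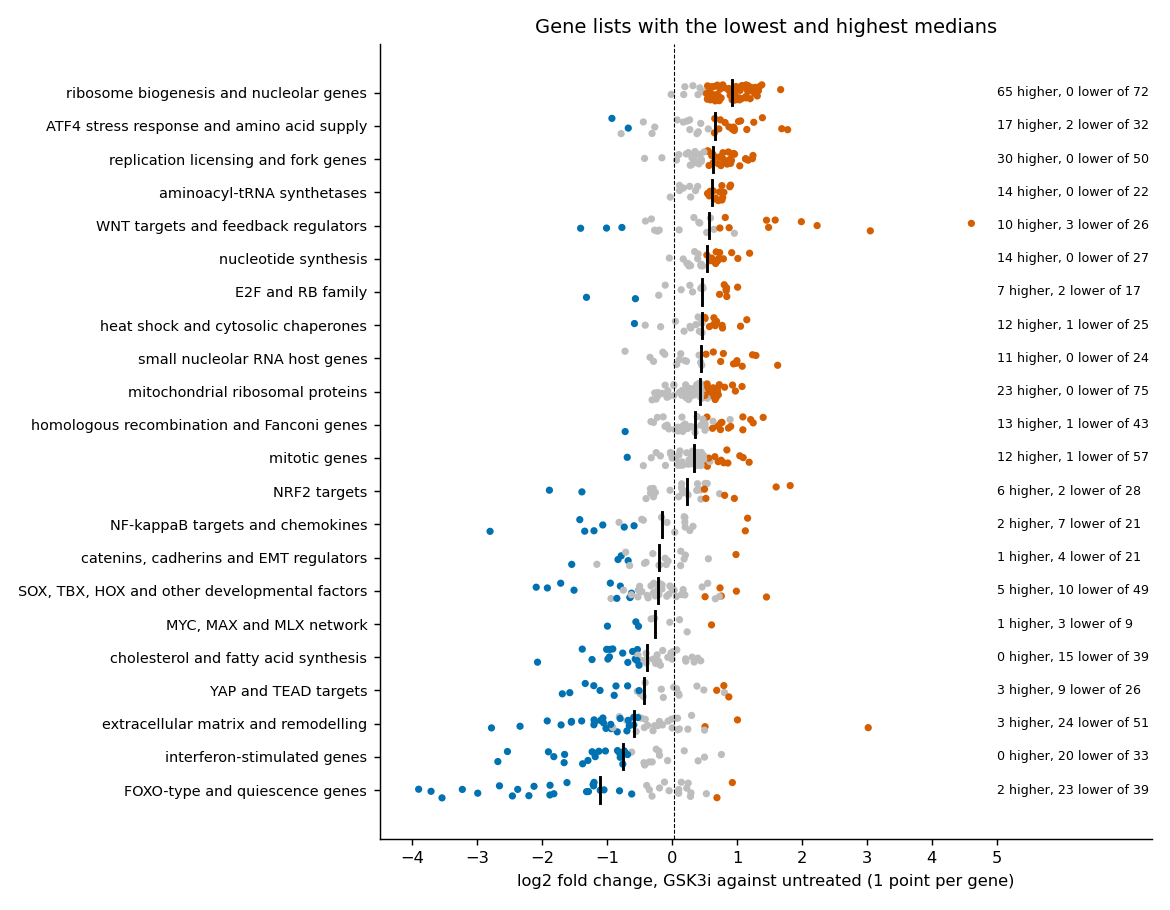
Log2 fold change of each tested gene (1 point per gene, x axis) in the lists with the lowest and highest medians, coloured orange when called higher, blue when called lower and grey when not called, with a bar at the list's median and a dashed line at the median of all genes. Ribosome biogenesis genes cluster to the right of 0.5, 65 of 72 called higher, and FOXO-type and quiescence genes spread to -3.90.

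The response was then set beside that of BRCA2-proficient cells, to ask which genes respond to GSK3i differently when BRCA2 is lost. Across 17381 genes the log2 changes in BRCA2-deficient and BRCA2-proficient cells, which share no library, were related with r = 0.83 (Pearson) and rho = 0.82 (Spearman). This is a description, since genes do not replicate each other independently. The test of the difference between the 2 responses called 6 genes (0.0345%), 5 with a positive difference (deficient minus proficient, 0.0288%) and 1 with a negative one (0.00575%). The count was 2 to 15 over the fits without 1 library, 2 without proficient untreated replicate 3, 3 without deficient GSK3i replicate 3 and 15 without deficient GSK3i replicate 1. edgeR called none, and DESeq2 with the replicate number as a block called 94 (73 positive). Of the 17381 genes tested, 610 had an unadjusted p below 0.05 in edgeR and 558 in DESeq2. Both are a smaller share than the 0.05 that tests without any difference would give. PPL, the cornified envelope protein periplakin (ENSG00000118898, chr16:4932508-5010742), fell from 726.8 and 775.7 normalised counts to 72.2, 71.7 and 65.4 in proficient cells and from 1247, 1334 and 1072 to 321.9, 419.1 and 456.9 in deficient cells. It fell in both, by 3.44 and 1.61 on the log2 scale, and the difference was 1.82 ± 0.26 (adjusted p = 5.84e-08). DIO2, which activates thyroid hormone (ENSG00000211448, chr14:80663869-80854100), was at 39.5 and 35.2 untreated and 25.6, 25 and 21.4 with GSK3i in proficient cells, and at 239.2, 323.9 and 309.0 untreated and 33.2, 47.8 and 51.9 with GSK3i in deficient cells. With GSK3i its level in deficient cells came near that of proficient cells, and the difference in response was -2.07 ± 0.41 (adjusted p = 0.00269), not called without proficient untreated replicate 3 (-1.99). The sixth was the ribosomal protein pseudogene RPL26P30, uncertain because its parent gene can share reads.

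FOXM1, WDR62 and TROAP, the other genes called by this test, act in mitosis. FOXM1, the transcription factor of G2 and mitosis (ENSG00000111206, chr12:2966846-2986340), stood at 7875 and 7757 normalised counts untreated and 9042, 8631 and 8956 with GSK3i in proficient cells. In deficient cells it stood at 3770, 3728 and 4462 untreated and 7502, 7253 and 6975 with GSK3i. The untreated deficient libraries were the lowest group, without overlap with any other, and the difference in response was 0.68 ± 0.15 (adjusted p = 0.00938). That call was lost in 10 of the 11 fits without 1 library, where the difference was 0.63 to 0.70, and remained without deficient untreated replicate 3. WDR62, a spindle pole protein, had 5539 and 5276 untreated and 6385, 7073 and 6157 with GSK3i in proficient cells, and 2872, 3091 and 3418 untreated and 6110, 6673 and 6585 with GSK3i in deficient cells (0.77 ± 0.16, adjusted p = 0.00579, lost in 8 of the 11 fits without 1 library, at 0.71 to 0.80, and kept without proficient GSK3i replicate 2, deficient untreated replicate 3 or deficient GSK3i replicate 1). TROAP, a cytoskeletal protein of the spindle, had a difference of 0.78 ± 0.13 (adjusted p = 3.11e-05, lost without proficient untreated replicate 3, at 0.77), although its own change in deficient cells (0.48 ± 0.14) was below the size for a call.

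For all 57 mitotic genes the fitted difference was positive, against 49.7% of all genes tested, with a median of 0.52, and 3 of them, FOXM1, WDR62 and TROAP, were called. The median GSK3i response of these genes was -0.16 in proficient and 0.33 in deficient cells. Their level in untreated deficient cells was lower than in untreated proficient cells by a median log2 of -0.91, and with GSK3i by -0.39. These comparisons share the untreated libraries, so they are given side by side. In the proficient arm the untreated libraries were replicates 2 and 3 only, while the GSK3i libraries were replicates 1 to 3. No replicate block entered these values, and the part of this imbalance in the signs and medians was not tested. With the block, the differences of FOXM1, WDR62 and TROAP were 0.68, 0.73 and 0.77. Replication genes had a positive difference in 43 of 50, with a median of 0.35, a response of 0.37 in proficient and 0.62 in deficient cells, and a log2 level of -0.57 untreated and -0.22 with GSK3i relative to proficient cells. Homologous recombination and Fanconi genes had 34 of 43. In contrast, cytosolic ribosomal proteins had a positive difference in 2 of 89, with a median response of 0.34 in proficient and 0.13 in deficient cells, none called. Ribosome biogenesis (1.0 proficient, 0.92 deficient), FOXO-type genes (-1.22, -1.11) and interferon-stimulated genes (-0.77 in both) had medians close to each other.

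**Figure D4:**
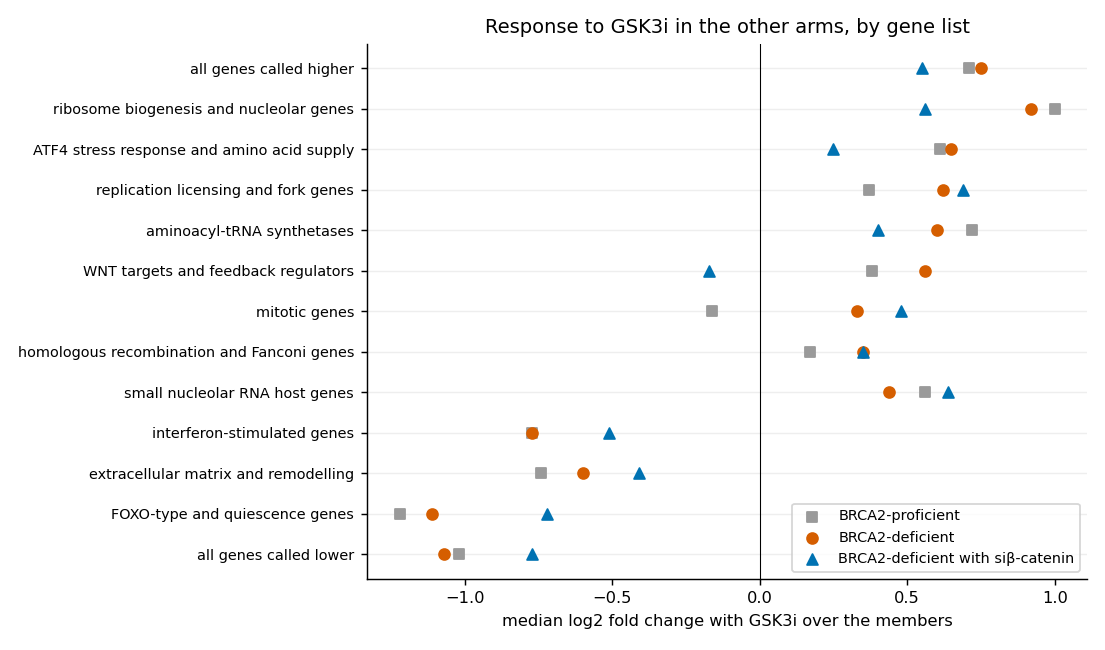
Median log2 fold change with GSK3i over the members of each list (x axis) in BRCA2-proficient cells (grey squares), BRCA2-deficient cells (orange circles) and BRCA2-deficient cells with siβ-catenin (blue triangles). Mitotic genes have a median of -0.16 in proficient and 0.33 in deficient cells, and WNT targets fall from 0.56 to -0.17 with siβ-catenin.

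How far the response depended on β-catenin was read from the BRCA2-deficient cells with siβ-catenin. CTNNB1 stood at 2217, 1874 and 1140 normalised counts with siβ-catenin and 1821, 1645 and 977 with GSK3i and siβ-catenin, against 5206 to 8669 in the 6 libraries with control siRNA. Across 18117 genes the responses with and without siβ-catenin were related with r = 0.81 (Pearson) and rho = 0.79 (Spearman), with no shared library. The difference (siβ-catenin minus control siRNA) was called for 88 genes (0.486%), 27 positive (0.149%) and 61 negative (0.337%). edgeR called 11, all negative, and DESeq2 with the replicate number as a block 335. Without single libraries the count was 47 to 110, lowest without untreated replicate 2, GSK3i replicate 2, GSK3i replicate 3 or siβ-catenin replicate 1 (56, 47, 54 and 52). The median response of genes called higher with GSK3i was 0.77 with control siRNA and 0.55 with siβ-catenin, and that of genes called lower -1.05 and -0.77. These genes were chosen by their calls in the same control siRNA libraries. That choice alone can make the response with siβ-catenin look smaller, so the medians do not measure dependence on β-catenin.

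Of the WNT targets, 21 of 26 had a negative difference and 6 were called. The share of 80.8% compares with 50.9% of all genes and 85.0% of genes called higher with GSK3i. AXIN2 stood at 95, 96.9 and 80.8 normalised counts with siβ-catenin and at 227.1, 192.5 and 117.5 with siβ-catenin and GSK3i, so that its log2 response of 4.63 with control siRNA was 0.98 with siβ-catenin (difference -3.65 ± 0.34, adjusted p = 2.51e-22). SOX4, a developmental transcription factor, stood at 951.3, 868.8 and 935.2 and at 844.3, 709.4 and 720.8, and its response went from 1.47 to -0.27 (-1.74 ± 0.20, adjusted p = 7.93e-15). SP5 stood at 212.6, 152.5 and 174.2 and at 92.0, 59.5 and 67.0, so that GSK3i lowered it where β-catenin was depleted (difference -2.13 ± 0.31). In SP5 and SOX4 the siβ-catenin libraries with GSK3i lay under those without it, the reverse of the order with control siRNA.

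Other genes whose rise was smaller with siβ-catenin lie outside that list. BCL2L11 stood at 220.2, 247.7 and 223.6 and at 173.1, 194.5 and 190.5, with a response of 1.10 that became -0.30 (difference -1.41 ± 0.25, adjusted p = 1.71e-05). IRS1 had 1.54 and -0.02 (-1.56 ± 0.33) and SLC7A5 1.80 and 0.62 (-1.17 ± 0.29). PALD1, a phosphatase-like protein, had 1.21 and 0.04 (-1.17 ± 0.18). Among falls that were smaller with siβ-catenin, TFPI, the inhibitor of the tissue factor pathway (ENSG00000003436, chr2:188328957-188430487), went from 1384, 1470 and 1540 to 524.7, 471.3 and 462.2 with control siRNA and from 1019, 975.8 and 914.0 to 576.2, 560.2 and 561.9 with siβ-catenin (difference 0.81 ± 0.15, adjusted p = 7.93e-05). The GSK3i levels of TFPI were higher with siβ-catenin while the levels without GSK3i were lower. DIO2 fell by 2.69 with control siRNA and by 1.05 with siβ-catenin on the log2 scale.

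**Figure D5:**
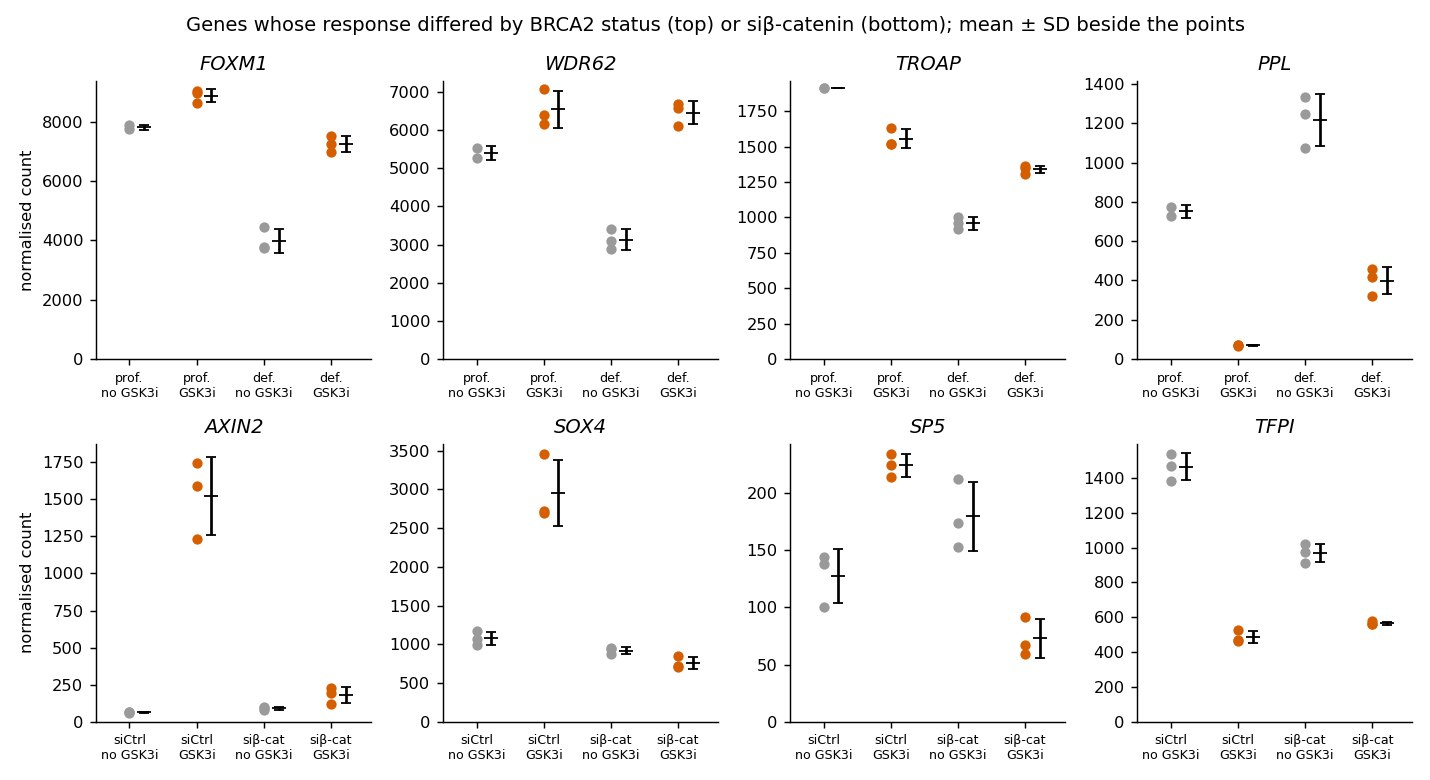
Normalised counts (y axis, from 0) in each library, grey without and orange with GSK3i, with mean ± SD beside the points. The top panels show 4 genes in BRCA2-proficient and BRCA2-deficient cells, where untreated deficient cells are lowest for FOXM1, WDR62 and TROAP, and the bottom panels 4 genes in BRCA2-deficient cells with control siRNA and siβ-catenin, where the rise of AXIN2 and SOX4 with GSK3i is seen with control siRNA.

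Other parts of the response were present with siβ-catenin. Ribosome biogenesis genes had a smaller response in 69 of 72 (95.8%), with a median of 0.94 with control siRNA and 0.56 with siβ-catenin. Of these genes 2, BOP1 and MYBBP1A, were called. The share over genes called higher was 85.0%, which their choice by calls in the control siRNA libraries can raise. Replication genes had a negative difference in 24 of 50 and medians of 0.65 and 0.69. The ATF4 and amino acid supply list had medians of 0.67 and 0.25, the FOXO-type list -1.09 and -0.72 and the interferon-stimulated list -0.74 and -0.51. PDCD4 fell by 3.39 on the log2 scale and HBP1 by 2.33 with siβ-catenin. CDKN1A, with -0.71 ± 0.23 in the control siRNA cells, had 0.06 with siβ-catenin, and the difference of 0.75 ± 0.28 was not called (adjusted p = 0.375).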

How the data were processed

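Polyadenylated RNA of H1299 cells was sequenced with a stranded library kit. The authors aligned reads to GRCh37/hg19 with HISAT2 (2.0.4), handled alignments with SAMtools (1.4), removed duplicates with Picard (1.9.2) and counted reads per gene with featureCounts (1.5.0), with versions from the submitters' processing notes (the study's reporting summary lists other versions of HISAT2, Picard and featureCounts), and deposited raw counts. Removing duplicates without molecular identifiers can compress counts of abundant genes. The strand setting and annotation release are not given in the sources used here, so reads of overlapping genes on opposite strands may not be told apart, which touches 35.3% of called and 35.1% of tested genes.

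Counts were tested with DESeq2 (1.42.0, R 4.3.3), Wald test with Benjamini-Hochberg adjustment and no shrinkage, in the 6 libraries alone, after removing genes with fewer than 10 counts in more than 3 libraries. Differences between responses were interaction terms over 11 libraries (BRCA2 status) and 12 libraries (siβ-catenin). Library totals set the precision and cover counting error only. Groups came from the labels. Symbols and GRCh37 coordinates came from GENCODE v44lift37 and promoters from RefSeq. On simulated counts at a log2 change of 1, DESeq2 recovered 126 of 200 changed genes and called 40 unchanged ones in the comparison of GSK3i with untreated, 55 and 21 in the interaction with BRCA2 status and 68 and 16 in that with siβ-catenin.

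Same-numbered libraries deviated together (r = 0.589, 0.209 and 0.576 for replicates 1, 2 and 3), although untreated replicate 3 and GSK3i replicate 2 had a higher r (0.313) than the pair numbered 2. Every same-numbered r was above 0.1, and the numbers, which the labels give, were taken to pair the libraries, although r does not single out the pair numbered 2. The main fit has no block, because the study's methods state none, and so leaves this pairing out. With the block, 4734 genes were called instead of 4289 in the main comparison. It gave 94 instead of 6 by BRCA2 status and 335 instead of 88 by siβ-catenin. The gene lists and comparisons were chosen with earlier results of these data known. Genes named are, for genes with a mean of at least 100, the 12 largest called changes and 5 most abundant called genes in each direction without overlap, up to 3 called members of each list in each direction, the 5 lowest adjusted p in each direction of each interaction, the genes that define the lists and those the study names from this assay. Other genes named, and those whose promoters are shown, were chosen after their values were seen. Some genes that the rule names are not reported here. Alternatives were edgeR (4.0.16), other scalings, filters and thresholds, a replicate block, single libraries left out, all 22 libraries in 1 model and, chosen after seeing the data, libraries thinned to equal totals.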

Additional observations from a re-analysis of the deposited data

Results flagged for a closer look

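Responses to GSK3i that differed between cells are listed here with the log2 difference, by the interaction test in DESeq2. Between BRCA2-deficient and BRCA2-proficient cells, PPL (1.82), TROAP (0.78), WDR62 (0.77) and FOXM1 (0.68) had a more positive response in deficient cells, and DIO2 (-2.07) a more negative one. Between siβ-catenin and control siRNA in BRCA2-deficient cells, the response was more negative with siβ-catenin for the WNT targets AXIN2 (-3.65), LEF1 (-2.62), SP5 (-2.13), SOX4 (-1.74), TCF7 (-1.57) and BMP4 (-1.25), and also for the gap junction gene GJB2 (-2.02), the insulin adaptor IRS1 (-1.56), RNF128 (-1.46), the BH3-only gene BCL2L11 (-1.41), the kinase gene DCLK1 (-1.37), TRIB2 (-1.35), ITPKA (-1.29), PALD1 (-1.17) and the amino acid transporter SLC7A5 (-1.17). NOMO3 (-2.36) has near-identical copies and is uncertain. The response was more positive with siβ-catenin for genes that GSK3i lowered, DIO2 (1.64), the serotonin receptor HTR1D (1.32), ARL14 (1.28), LINC00707 (1.16), the chemokine CXCL2 (1.03), the glycogen-targeting subunit PPP1R3C (1.01), the phosphatase DUSP1 (0.88) and TFPI (0.81). edgeR called none of those by BRCA2 status. Of those by siβ-catenin it called 11 genes against 88 in DESeq2, all negative, so none of the listed genes with a more positive response. Among the listed genes with a more negative response, edgeR called AXIN2, LEF1, SP5, SOX4, TCF7, PALD1 and NOMO3. BCL2L11, RNF128, IRS1 and TRIB2 were among those it did not call (edgeR adjusted p = 0.0525, 0.0685, 0.144 and 0.248). The FOXM1 and WDR62 calls were lost in most fits without 1 library. DIO2 and TROAP were among the calls by BRCA2 status that were lost without proficient untreated replicate 3, with differences of -1.99 and 0.77.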

How the results depend on the processing

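The comparison of GSK3i with untreated cells kept its direction counts within 1.5 times under 9 of the 10 alternatives that used all 6 libraries, and tested against a log2 change of 0.5 instead of 0 it gave 858 genes, 271 higher and 587 lower. Leaving out single libraries gave 3084 to 4350 genes, 1436 to 1953 higher and 1648 to 2411 lower. The difference by BRCA2 status was called for no gene by edgeR (0 in either direction, 610 of 17381 at an unadjusted p below 0.05, a share below 0.05). It was called for 1 gene, with a positive difference and 0 negative, when tested against 0.5. With the replicate block it was called for 94 (73 positive, 21 negative), and leaving out single libraries gave 2 to 15 genes, 2 to 10 positive and 0 to 5 negative. The difference by siβ-catenin was called for 52 genes at an adjusted p below 0.01 (12 positive, 40 negative), for 11 by edgeR (0 positive, 11 negative), for 335 with the replicate block (117 positive, 218 negative) and for 6 against 0.5 (0 positive, 6 negative), and leaving out single libraries gave 47 to 110 genes, 10 to 39 positive and 37 to 79 negative. Of 209 named genes of the main comparison the block changed no call, library totals weakened 8, edgeR 9, the all-library model 12 and the test against 0.5 weakened 108. 3 uncalled genes near 0 changed sign. GSK3B, at 0.01, was at -0.01 by edgeR and TMM factors, -0.10 by library totals, -0.02 with a minimum of 50 counts and -0.15 to 0.14 without single libraries, below 0 without untreated replicate 1 (-0.15), GSK3i replicate 2 (-0.06) or GSK3i replicate 3 (-0.04). CCNE1, at 0.02, was at -0.0040 by edgeR, -0.0041 with TMM factors, -0.10 by library totals, -0.03 with a minimum of 50 counts and -0.10 to 0.18 without single libraries, below 0 without untreated replicate 2 (-0.10), GSK3i replicate 1 (-0.10) or GSK3i replicate 3 (-0.05). TFEB, at 0.10, was at -0.02 by library totals and -0.03 (without untreated replicate 2) to 0.22 without single libraries. The cause of these shifts was not tested, and 3 libraries a group limit what small differences could be called.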

Other observations

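Several groups beyond those above held calls in both directions, as all genes did (11.6% higher and 13.8% lower). The share called in either direction was 25.4% of all genes. It was near that for glycolysis and hypoxia genes (25.7%) and NRF2 targets (28.6%), and lower for ZNF genes (18.9%). It was higher for circadian clock (55%), NOTCH (36.7%), immediate-early (34.8%) and developmental genes (30.6%). Whether these shares differ from that of all genes was not tested. In the circadian clock, 6 of 20 genes rose and 5 fell. PER1 stood at 658.1, 602.2 and 553.6 normalised counts untreated and 1123, 1208 and 1168 with GSK3i (0.95 ± 0.15), without overlap, and PER2 rose by 1.27 ± 0.35, while NR1D2, a repressor of the clock, stood at 1120, 1690 and 1797 and at 728.6, 943.5 and 900.3 (-0.84 ± 0.22). The counts were 3 higher without GSK3i replicate 2, and 2 lower without it and 3 lower without any of the other libraries but GSK3i replicate 1. In the NOTCH pathway 5 of 30 rose and 6 fell (3 without GSK3i replicate 3), with HES7 at 1.61 ± 0.30, HES6 at 1.14 ± 0.24 and HEY1 at 1.10 ± 0.26, and with the co-activator MAML3 at -2.29 ± 0.27 and the receptor NOTCH3 at -0.89 ± 0.22. Of 28 NRF2 targets 6 rose (3 without GSK3i replicate 2) and 2 fell, among them OSGIN1 (1.6 ± 0.20) and the exporter ABCC3 (-1.39 ± 0.24). In glycolysis and the hypoxia response, 6 of 35 rose, with HK2 at 0.91 ± 0.17 and GPI at 0.82 ± 0.19, and 3 fell (5 with library totals or without GSK3i replicate 1), with EPAS1, which encodes HIF2α, at 1591, 2346 and 2027 untreated and 572.8, 716.2 and 608.8 with GSK3i (-1.65 ± 0.20). Of 49 developmental factors, 5 rose (10.2%) and 10 fell (20.4%), among them SOX2 (0.99 ± 0.20), SIX5 (-1.92 ± 0.20) and HOXD9 (-1.51 ± 0.33). Immediate-early genes fell in 7 of 23 cases (4 without GSK3i replicate 2) with 1 higher (2 without untreated replicate 3 or GSK3i replicate 1), NR4A1 (0.87 ± 0.24, not called without GSK3i replicate 2, at 0.75), and KLF2 stood at 185.6, 221.0 and 158.6 untreated and 40.1, 37.1 and 42.0 with GSK3i (-2.25 ± 0.27). The ETS factors ETV4 (1.26 ± 0.25) and ETV1 (-1.52 ± 0.25) moved apart. Of 454 ZNF genes, 45 rose (9.91%) and 41 fell (9.03%), 78 and 48 with the replicate block. Without single libraries the rises ranged from 23 (without GSK3i replicate 2) to 70 (without GSK3i replicate 1), with 25 without untreated replicate 2 and 29 without GSK3i replicate 3, and the falls were 27 without untreated replicate 2 or GSK3i replicate 2.

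The direction of the calls varied with the level of the gene. Called genes were higher in 16.4% of cases where the mean normalised count was below 30, in 46.0% between 300 and 1000, and in 77.5% between 3000 and 10000. By annotation, 1758 protein-coding genes rose and 1939 fell, while 99 long non-coding RNAs rose and 286 fell, with medians of 0.04 and -0.21 over all tested genes of each class.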
